A study of Gloeophyllum trabeum with 9 samples.

Results

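Of the 11846 gene models measured in the brown rot fungus Gloeophyllum trabeum, 4 are the focus here. All 4 encode enzymes proposed to interconvert quinones and hydroquinones during wood decay. They are 3 benzoquinone reductases of the auxiliary activity family AA6, with protein ID 82342 (QRD1), protein ID 101783 (QRD2) and protein ID 66940, and a laccase of family AA1_1 with protein ID 130426, named Gtlcc2 in the RefSeq annotation. They were selected by protein ID, all 3 AA6 genes that the study lists and 1 of the 4 AA1_1 genes. The laccase was chosen on the values themselves, because its mean TPM was higher on both cedar and cellulose than on glucose, at 11.0 on cedar, 17.5 on cellulose and 0.835 on glucose. Its values against glucose, and those of the other 3 AA1_1 genes, which were set apart in the same comparison, are therefore described without a test.

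Mycelium of strain NBRC6430 was grown with Japanese cedar wood, cellulose or glucose as the sole carbon source, in 3 cultures and 3 libraries each. The cedar and cellulose cultures were 5 days old and the glucose cultures 3 days old, so the effects of substrate and culture age cannot be told apart against glucose. All libraries come from this strain with no genetic change given, whereas the gene models are those of another, sequenced isolate. The values are TPM, an abundance relative to all transcripts and corrected for transcript length, which the authors normalized between libraries with Sleuth. The columns therefore do not share a fixed total and sum to between 678148 (glucose replicate 3) and 1680448 (cellulose replicate 3). The RNA came from whole mycelium, so fewer hyphae with a transcript and less of it in each hypha cannot be told apart.

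Brown rot fungi open the wood cell wall with hydroxyl radicals, formed when hydrogen peroxide meets ferrous iron. Hydroquinones secreted by the fungus, such as 2,5-dimethoxyhydroquinone in G. trabeum, reduce ferric iron and are thereby oxidized to quinones. AA6 enzymes are intracellular flavoproteins that reduce quinones back to hydroquinones, and laccases are multicopper oxidases that oxidize hydroquinones and other phenols to semiquinones with oxygen as the acceptor.

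QRD1 (Glotr_82342) was the most abundant transcript of the 3 AA6 genes in each of the 9 libraries, and it was lower on both cedar and cellulose than on glucose. QRD1 of G. trabeum is the reductase known to act on 2,5-dimethoxybenzoquinone. It had 90.0, 151 and 111 TPM in the 3 cedar libraries, 84.7, 60.6 and 128 TPM in the 3 cellulose libraries, and 264, 292 and 416 TPM in the 3 glucose libraries. The cedar and cellulose libraries overlapped, and all 6 lay below the lowest glucose library. Means were 118 ± 31.2 on cedar, 91.1 ± 34.0 on cellulose and 324 ± 80.7 on glucose (SD, n = 3 each).

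For QRD1, the ratio of mean TPM was 0.363 for cedar over glucose and 0.281 for cellulose over glucose. On the log2(TPM + 0.5) scale, which understates changes of low transcripts, the cedar difference was -1.46 ± 0.24 (SE; limma, Benjamini-Hochberg adjusted p = 0.00157). The cellulose difference was -1.86 ± 0.31 (SE; limma, adjusted p = 0.00278). Both passed the thresholds for a lower call, an adjusted p under 0.01 with a ratio of at most 0.5. The cellulose call was lost without cellulose replicate 1 (adjusted p = 0.0120), glucose replicate 2 (0.0117) or glucose replicate 3 (0.0111), and without a filter on low values (0.0109), within a range of 0.000126 to 0.0120 over all alternatives. Under rescaling to the same total TPM the cellulose difference was larger, at -3.02, beside a median of -1.09 over all gene models tested.

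**Figure D1:**
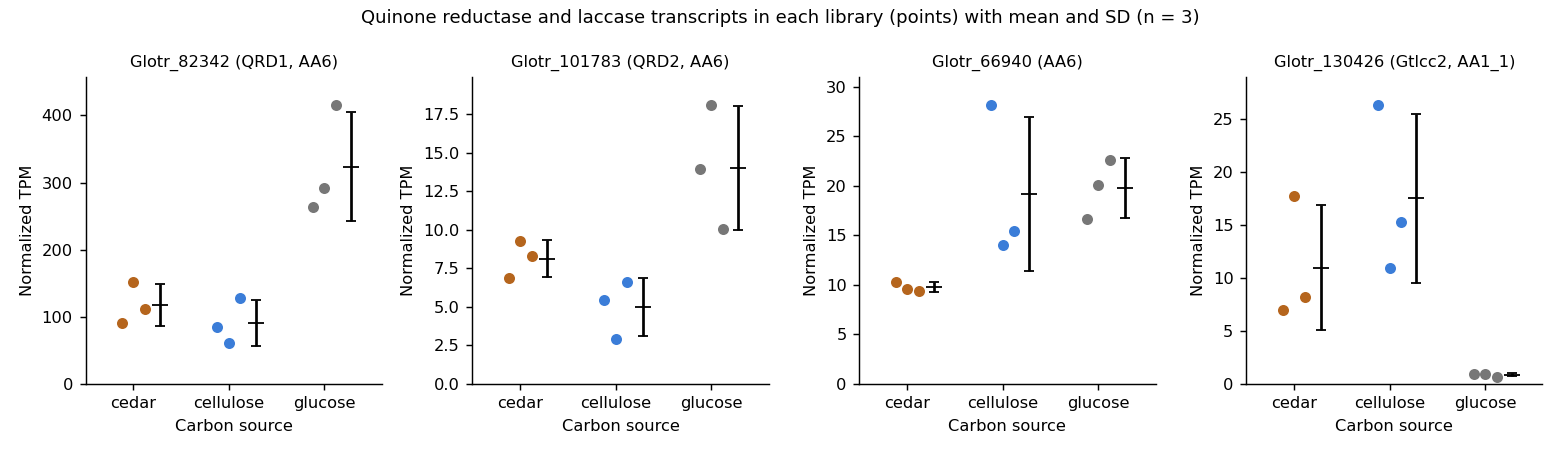
Normalized TPM (vertical axes, linear and starting at 0) of the 4 genes in each library on cedar, cellulose and glucose, with the mean and SD of 3 libraries beside the points. QRD1 reached 416 TPM on glucose and stayed at or below 151 TPM on cedar and cellulose, while the laccase Glotr_130426 stayed below 1 TPM on glucose.

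QRD2 (Glotr_101783), a second AA6 reductase, was expressed at a far lower level than QRD1. Its values were 6.85, 9.25 and 8.26 TPM on cedar, 5.46, 2.87 and 6.58 TPM on cellulose, and 13.9, 18.1 and 10.1 TPM on glucose. The 3 groups did not overlap, although they lay close together. The lowest glucose library (10.1) was just above the highest cedar library (9.25), and the lowest cedar library (6.85) just above the highest cellulose library (6.58). Its ratio of mean TPM was 0.579 for cedar over glucose, with a log2 difference of -0.72 ± 0.22 (SE; limma, adjusted p = 0.0220), and 0.354 for cellulose over glucose, with a log2 difference of -1.44 ± 0.33 (SE; limma, adjusted p = 0.0104). Neither passed both thresholds, the cellulose value by a narrow margin, and 7 of its 19 alternatives called it lower there (adjusted p from 0.000183 to 0.0389 over all 19).

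The third AA6 gene, Glotr_66940, differed from QRD1 in its pattern. It had 10.3, 9.55 and 9.39 TPM on cedar, 28.1, 14.0 and 15.4 TPM on cellulose, and 16.6, 20.1 and 22.6 TPM on glucose. The cedar libraries lay within a narrow band below all others, and the cellulose libraries spanned the glucose range on both sides. It was called lower on cedar than on glucose, at a ratio of 0.493 and a log2 difference of -0.97 ± 0.13 (SE; limma, adjusted p = 0.000529). That ratio was close to the threshold of 0.5, which it no longer met without cedar replicate 3 (0.502), without glucose replicate 3 (0.531) or with libraries set to the same total without the top 10 gene models (0.569). For cellulose over glucose the log2 difference was -0.10, with a 95% interval of -0.76 to 0.55 (limma, adjusted p = 0.775), an interval that holds a fall as well as a rise. It changed sign, to 0.083 without cellulose replicate 2 and to 0.016 without cellulose replicate 3, and was called lower under the same total TPM, at -1.23 (adjusted p = 0.00650, from 0.00650 to 0.994 over the alternatives). Under that scaling the median over all gene models tested was -1.09, and Glotr_66940 lay at -0.14 relative to it.

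None of the AA6 genes was called higher on either substrate than on glucose by limma, and none had an unadjusted p under 0.05 in that direction. On cedar, 2 of 3 were called lower, where 15.7% of all 10555 gene models tested were called lower and 15.2% higher. On cellulose, 1 of 3 was called lower, where 13.9% of 10501 gene models were called lower and 10.4% higher. The median log2 difference of the 3 genes was -0.97 on cedar and -1.44 on cellulose, beside medians over all gene models tested of 0.04 and -0.09. The libraries did not overlap with glucose in 3 of 3 AA6 genes on cedar and in 2 of 3 on cellulose, beside 71.4% and 62.7% of all gene models tested. The cedar and cellulose comparisons share their glucose libraries.

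Between cedar and cellulose, the AA6 genes did not move together. The log2 difference of cedar minus cellulose was 0.40 for QRD1 (95% interval -0.35 to 1.15, limma, adjusted p = 0.339), 0.71 for QRD2 (0.03 to 1.40, adjusted p = 0.0832) and -0.87 for Glotr_66940 (-1.49 to -0.25, adjusted p = 0.0350). None was called, where 10.7% of 10503 gene models were called higher and 5.95% lower, and at an unadjusted p under 0.05 there were 1 in each direction. QRD2 was higher, by a narrow margin, and Glotr_66940 lower in each cedar library than in each cellulose library. Libraries of these 2 groups did not overlap in 57.3% of gene models tested. Under rescaling to the same total TPM the QRD1 and QRD2 differences passed the thresholds, at 1.38 and 1.60, and that of Glotr_66940 changed sign to 0.074. The median over all gene models tested was 0.91 under that scaling. Relative to it, the values were 0.47 for QRD1, 0.69 for QRD2 and -0.84 for Glotr_66940.

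**Figure D2:**
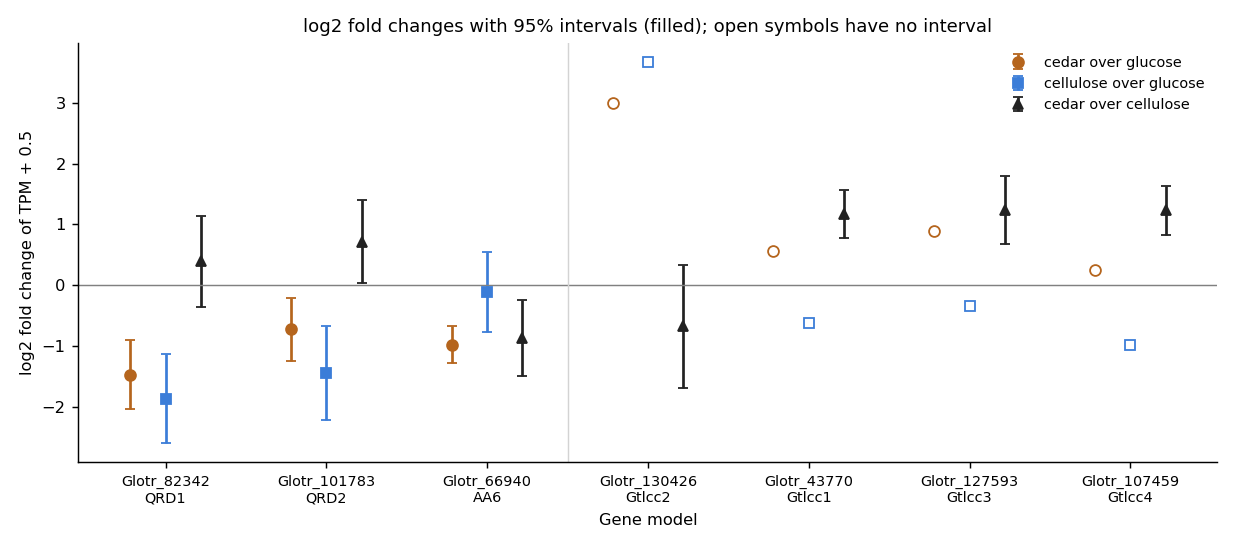
log2 fold changes of TPM + 0.5 (vertical axis) for the 3 AA6 genes and the 4 AA1_1 genes, with 95% intervals from limma for the tested contrasts and open symbols, without an interval, for the laccase values against glucose that are described only. The AA6 points against glucose run from -0.10 to -1.86, and Glotr_130426 lies at 3.00 for cedar and 3.67 for cellulose.

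Ratios between the genes of one library do not depend on how libraries were scaled. QRD1 made up 84.0%, 89.0% and 86.3% of the summed AA6 TPM in the cedar libraries, 71.6%, 78.3% and 85.3% in the cellulose libraries, and 89.6%, 88.4% and 92.7% in the glucose libraries. The cellulose libraries were spread most, and 2 of them lay below every cedar and glucose library. The share of Glotr_66940 was 7.51% ± 2.02 on cedar, 17.4% ± 6.78 on cellulose and 5.59% ± 0.521 on glucose (SD, n = 3 each). Glotr_66940 had 5.16, 4.86 and 2.34 times the TPM of QRD2 in the cellulose libraries, against 1.51, 1.03 and 1.14 times on cedar and 1.20, 1.11 and 2.25 times on glucose. The lowest cellulose value was thus just above the highest glucose value, that of replicate 3.

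Within each library, QRD1 ranked above 93.6% to 96.7% of gene models on cedar, 88.2% to 93.4% on cellulose and 97.6% to 98.6% on glucose. QRD2 ranked above 41.0% to 49.7% on cedar, 30.9% to 45.5% on cellulose and 51.2% to 67.7% on glucose. Glotr_66940 ranked above 49.0% to 52.4% on cedar, 62.0% to 76.2% on cellulose and 65.7% to 72.8% on glucose. The ranks, which do not depend on the scaling between libraries either, put all 3 genes lower in each cedar library than in each glucose library. By TPM, 71.4% of all gene models tested had cedar and glucose libraries that did not overlap, and no such share was computed for ranks. On cellulose, QRD1 and QRD2 ranked lower than in each glucose library, whereas the ranks of Glotr_66940 overlapped with those on glucose.

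The 3 AA6 genes stand near each other in the genome. Positions are from the RefSeq annotation, whose table used here names no scaffolds, and are given under Glotr1_1, the study's name for its gene models. QRD1 spans positions 199286 to 200525, Glotr_66940 spans 228629 to 229905 and QRD2 spans 231745 to 234077, in a single run of rising positions. The last of these are neighbours with 1839 bases between them, and 3 gene models lie between QRD1 and Glotr_66940. The QRD2 gene overlaps the next gene model, Glotr_133987, by 1051 bases, and strands are not in the table. Kallisto was run in its strand-specific mode, and how it divided reads between this pair is not known. Glotr_133987 had 2.76 ± 0.276 TPM on cedar, 2.81 ± 0.835 on cellulose and 3.19 ± 0.306 on glucose (SD, n = 3 each), and no call was made for it.

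The other gene models of this stretch did not all move in the direction of the AA6 genes. Of the 9 gene models between the AA6 genes and up to 3 to either side, 1 was called higher and 2 lower on cedar than on glucose, and 1 was called higher and 3 lower on cellulose than on glucose. Over all gene models tested, the shares were 15.2% higher and 15.7% lower on cedar, and 10.4% higher and 13.9% lower on cellulose, so counts this small say nothing particular of the stretch. Glotr_133984, which lies between QRD1 and Glotr_66940, averaged 2.63 ± 0.463 TPM on cedar, 4.94 ± 2.67 on cellulose and 34.8 ± 4.66 on glucose, with log2 differences of -3.50 and -2.85 against glucose (limma, adjusted p = 3.00e-06 and 0.00181). Glotr_123576, the gene model next to QRD1, averaged 13.4 ± 1.20 TPM on cedar, 5.87 ± 1.02 on cellulose and 1.51 ± 0.329 on glucose, with log2 differences of 2.79 and 1.66 (limma, adjusted p = 7.25e-06 and 0.000529). These 2 gene models were named after their values were seen, and no product is given for either in the annotation used here.

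**Figure D3:**
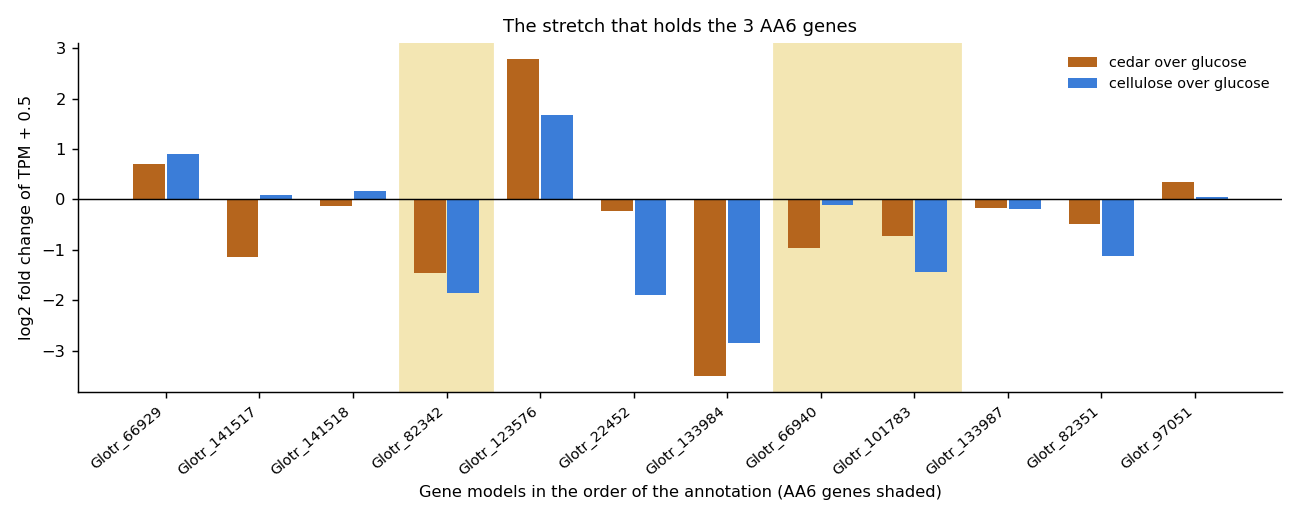
log2 fold changes of TPM + 0.5 over glucose (vertical axis), cedar left of cellulose, for 12 gene models in the order of the annotation, with the 3 AA6 genes shaded. Bars of both signs occur, from 2.79 for Glotr_123576 to -3.50 for Glotr_133984, both on cedar, and those from Glotr_22452 to Glotr_82351 all lie below 0.

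The laccase Glotr_130426 was barely expressed on glucose and ranked near the middle of the transcriptome on the substrates. It had 6.99, 17.8 and 8.24 TPM in the cedar libraries, 26.4, 10.9 and 15.3 TPM in the cellulose libraries, and 0.890, 0.941 and 0.674 TPM in the glucose libraries. The glucose libraries were alike, whereas the highest library exceeded the lowest 2.54 times on cedar and 2.42 times on cellulose. The ratio of mean TPM was 13.2 for cedar over glucose and 21.0 for cellulose over glucose, and the log2 differences were 3.00 and 3.67, values that chose this gene and carry no test. The cellulose value moved to 2.72 under the same total TPM and to 4.15 with an added value of 0.1.

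The laccase ranked above 41.6% to 68.1% of gene models on cedar, 55.9% to 75.0% on cellulose and 16.8% to 18.4% on glucose. Between cedar and cellulose its libraries overlapped, at means of 11.0 ± 5.89 and 17.5 ± 7.96 TPM (SD, n = 3 each). The log2 difference of cedar minus cellulose was -0.67, with a 95% interval of -1.69 to 0.34 (limma, adjusted p = 0.239). It changed sign to 0.27 under rescaling to the same total TPM, where the median over all gene models tested was 0.91.

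The 3 other AA1_1 laccases had less than 10 TPM in all 9 libraries, although Gtlcc3 exceeded Glotr_130426 in cedar replicates 1 and 3. On glucose, all 3 exceeded Glotr_130426 in each library. Gtlcc3 (Glotr_127593) had 9.15, 6.41 and 9.80 TPM on cedar, 2.47, 4.32 and 3.16 TPM on cellulose, and 5.38, 4.01 and 3.55 TPM on glucose. Gtlcc1 (Glotr_43770) had 4.47, 5.14 and 3.97 TPM on cedar, 1.45, 2.11 and 1.66 TPM on cellulose, and 2.54, 3.00 and 3.18 TPM on glucose. Gtlcc4 (Glotr_107459) had 2.72, 1.82 and 2.38 TPM on cedar, 0.605, 0.665 and 0.778 TPM on cellulose, and 1.91, 1.81 and 1.76 TPM on glucose. In all 3, each cedar library exceeded each cellulose library. Of all gene models tested, 57.3% had cedar and cellulose libraries that did not overlap, in either direction. The mean on glucose stood between the means on cedar and cellulose in each of these 3 laccases.

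These 3 laccases were called higher on cedar than on cellulose. The log2 difference of cedar minus cellulose was 1.24 ± 0.24 for Gtlcc3 (SE; limma, adjusted p = 0.00710), 1.17 ± 0.17 for Gtlcc1 (adjusted p = 0.00270) and 1.23 ± 0.17 for Gtlcc4 (adjusted p = 0.00237), with ratios of mean TPM of 2.55, 2.60 and 3.37. The share of all gene models called in this direction was 10.7%. Quantile normalization ended all 3 calls (adjusted p = 0.0155 for Gtlcc3, 0.0249 for Gtlcc1 and 0.0191 for Gtlcc4), as did leaving out cedar replicate 1 (0.0300, 0.0150 and 0.0141) or cedar replicate 3 (0.0322, 0.0124 and 0.0163). Leaving out cedar replicate 2 ended 2 calls (0.0101 for Gtlcc3 and 0.0110 for Gtlcc1), and leaving out cellulose replicate 1 or 3 or the filter ended that of Gtlcc3 (0.0214, 0.0123 and 0.0208). The log2 differences over all alternatives ran from 0.89 to 2.10 for Gtlcc3 (adjusted p from 7.44e-05 to 0.0322), from 0.64 to 1.96 for Gtlcc1 (0.000125 to 0.0249) and from 0.66 to 1.86 for Gtlcc4 (4.63e-05 to 0.0191).

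**Figure D4:**
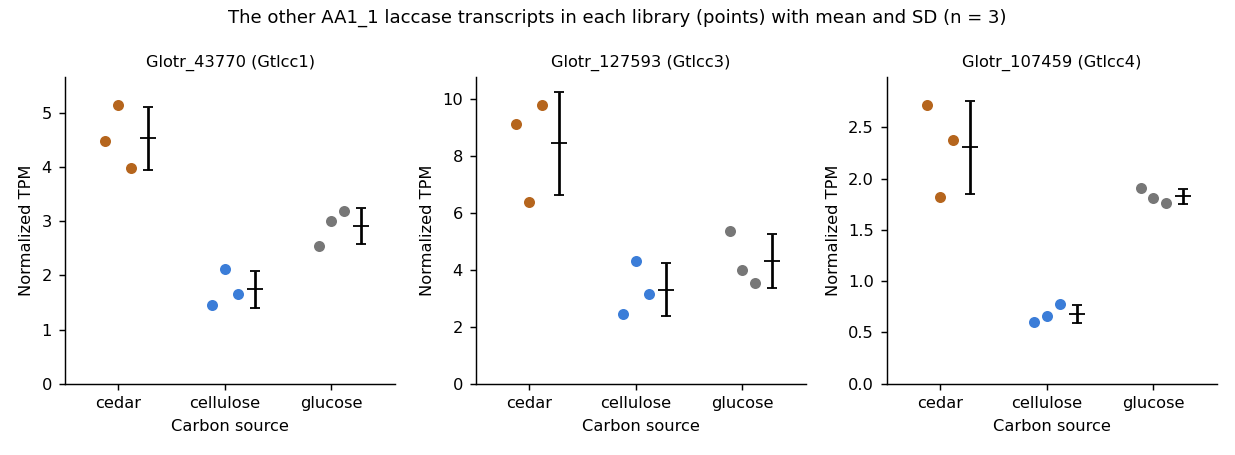
Normalized TPM (vertical axes, linear and starting at 0) of the other 3 AA1_1 laccase genes in each library on cedar, cellulose and glucose, with the mean and SD of 3 libraries beside the points. In each panel the 3 cedar libraries lie above the 3 cellulose libraries. Over all gene models tested, 57.3% had no overlap between these groups, in either direction.

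As a description, the ratios of mean TPM to glucose were 1.96 on cedar and 0.769 on cellulose for Gtlcc3, 1.56 and 0.599 for Gtlcc1, and 1.26 and 0.374 for Gtlcc4. The Gtlcc3 libraries on cellulose and the Gtlcc4 libraries on cedar overlapped with those on glucose. The 4 laccase genes are not neighbours. Glotr_130426 spans positions 617026 to 619617 and Gtlcc1 spans 1088748 to 1091609 in 1 run of rising positions in Glotr1_1, and Gtlcc3 (1384206 to 1386907) and Gtlcc4 (732572 to 737339) lie in separate runs.

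Within the laccase family, Glotr_130426 held 30.0%, 57.1% and 33.8% of the summed AA1_1 TPM in the cedar libraries, 85.3%, 60.6% and 73.3% in the cellulose libraries, and 8.31%, 9.64% and 7.34% in the glucose libraries. The ranges of the 3 carbon sources did not overlap, and cedar replicate 2 came within a few percentage points of cellulose replicate 2. As Glotr_130426 was chosen for its values against glucose, its lower share on glucose is a description. The summed AA1_1 TPM was 26.3 ± 4.23 on cedar, 23.3 ± 6.76 on cellulose and 9.88 ± 0.778 on glucose (SD, n = 3 each). The other 3 genes together had 15.3 ± 1.67 TPM on cedar, 5.74 ± 1.29 on cellulose and 9.05 ± 0.691 on glucose.

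**Figure D5:**
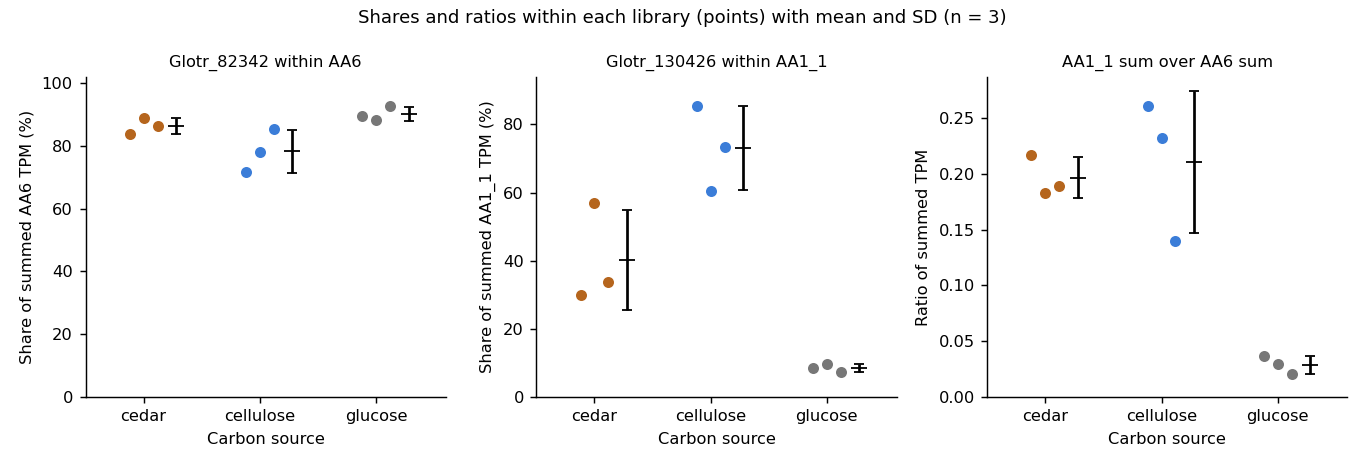
Share of QRD1 in the summed AA6 TPM, share of Glotr_130426 in the summed AA1_1 TPM (both in percent) and ratio of summed AA1_1 to summed AA6 TPM, for each library on cedar, cellulose and glucose with the mean and SD of 3 libraries. The laccase share averaged 40.3% on cedar, 73.1% on cellulose and 8.43% on glucose. Its difference from glucose is a description, as this laccase was chosen for its values there.

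Laccase transcripts were fewer than quinone reductase transcripts in each library, by a factor that differed with the carbon source. The summed AA6 TPM was 4.59, 5.47 and 5.28 times the summed AA1_1 TPM in the cedar libraries, 3.83, 4.30 and 7.16 times in the cellulose libraries, and 27.5, 33.8 and 48.9 times in the glucose libraries. The cedar and cellulose libraries overlapped and all lay below the glucose libraries. As the laccase that was chosen for its values is part of the sum, this difference from glucose is a description. The summed AA6 TPM alone was 135 ± 32.1 on cedar, 115 ± 36.3 on cellulose and 358 ± 80.5 on glucose (SD, n = 3 each).

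Other genes proposed to act in iron reduction and peroxide supply were counted as lists that the study compiled with these samples in view, so that their directions are not independent evidence. Of 4 genes of ferric-iron-reducing glycopeptides, 3 were called higher on cedar than on glucose and 4 on cellulose, with median log2 differences of 2.18 on cedar and 4.24 on cellulose beside the medians of all gene models given above. Of all gene models tested, 15.2% were called higher and 15.7% lower on cedar than on glucose, and 10.4% higher and 13.9% lower on cellulose than on glucose. The exception on cedar was Glotr_58158, at 210 ± 27.2 TPM on cedar, 566 ± 92.7 on cellulose and 175 ± 3.40 on glucose (limma, adjusted p = 0.109 for cedar over glucose). Glotr_101715 averaged 13218 ± 1702 TPM on cedar, 29313 ± 19864 on cellulose and 3724 ± 767 on glucose. Glotr_132851 averaged 409 ± 56.4 TPM on cedar, 5046 ± 4482 on cellulose and 74.3 ± 29.5 on glucose, and Glotr_104526 averaged 277 ± 262 TPM on cedar, 197 ± 209 on cellulose and 1.09 ± 0.286 on glucose. The spread between replicates was thus close to the mean on cellulose in Glotr_132851, and on both substrates in Glotr_104526.

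Of 4 polyketide synthases, a family that makes aromatic precursors, 2 were called lower on cedar and 2 on cellulose by limma, and none higher (1 on cedar and 0 on cellulose at an unadjusted p under 0.05). Their median log2 difference was -0.71 on cedar and -1.01 on cellulose. The more abundant of these on glucose, Glotr_116317 (PKS1), had 3.23 ± 0.336 TPM on cedar, 16.7 ± 5.19 on cellulose and 104 ± 22.1 on glucose. Glotr_103847, the synthase higher on cedar at an unadjusted p under 0.05, also had an adjusted p of 0.000404 (limma). It missed only the 2-fold threshold, at a ratio of 1.90 for cedar over glucose. Of 6 listed oxidases of families that can form hydrogen peroxide, 3 were called higher on each substrate by limma and none lower. At an unadjusted p under 0.05, 1 was lower on cedar and 0 on cellulose. The medians of the 6 were 0.96 on cedar and 1.03 on cellulose. The list leaves out the AA3_2 oxidoreductases, which the study also proposes as candidates for peroxide production. Beside these synthase and oxidase counts, 15.2% of all gene models tested were called higher and 15.7% lower on cedar than on glucose. On cellulose against glucose, the shares were 10.4% higher and 13.9% lower. The alcohol oxidase gene Glotr_139980 averaged 9168 ± 509 TPM on cedar, 7623 ± 844 on cellulose and 38.9 ± 5.20 on glucose, and the copper radical oxidase gene Glotr_65654 averaged 141 ± 7.81 TPM on cedar, 337 ± 5.90 on cellulose and 238 ± 9.89 on glucose. Glotr_65654 was called lower on cedar than on cellulose, at a log2 difference of -1.26 (limma, adjusted p = 0.00125). For cedar over glucose, Glotr_65654 had an adjusted p of 0.000561 (limma) and missed only the fold threshold, at a ratio of 0.592. Between cedar and cellulose, 1 gene of each of these 3 lists was called lower and none higher by limma, beside 5.95% lower and 10.7% higher of all gene models tested. At an unadjusted p under 0.05, the genes higher on cedar numbered 0 of the glycopeptides, 2 of the polyketide synthases and 1 of the oxidases.

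The gene models most like each member were found by the root mean square difference between centred log2(TPM + 0.5) profiles over the 9 libraries, among 9939 others. For QRD1 they were Glotr_105719 (0.175), Glotr_113798 (0.213) and Glotr_13435 (0.242). Glotr_113798 averaged 59.7 ± 21.1 TPM on cedar, 58.7 ± 31.9 on cellulose and 157 ± 36.5 on glucose. These 3 remained the most alike with an added value of 1 and under the same total TPM, which did not hold for the lists of the other members.

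For QRD2 the same measure gave Glotr_135595 (0.211), Glotr_45447 (0.254) and Glotr_93474 (0.263), of which Glotr_45447 dropped out under both alternatives. For Glotr_66940 it gave Glotr_30277 (0.129), Glotr_112956 (0.140) and Glotr_128909 (0.147), of which Glotr_30277, annotated as a KH domain protein related to poly(C)-binding proteins, averaged 79.7 ± 6.79 TPM on cedar, 162 ± 43.2 on cellulose and 169 ± 12.9 on glucose. For the laccase it gave Glotr_94428 (0.322), Glotr_21790 (0.344) and Glotr_126259 (0.354), so its nearest neighbours were less close than those of the AA6 genes. With an added value of 1, Glotr_112956 and Glotr_126259 dropped out of these lists, and under the same total TPM Glotr_94428 did. None of the members was among the 3 most alike of another. QRD2 came closest, at rank 200 for QRD1 with a difference of 0.469, and the laccase was at rank 9733 for QRD1 with 2.43. As this laccase was chosen for its values against glucose, which the profiles include, its distances are a description.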

How the data were processed

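RNA of 9 mycelial cultures was sequenced from stranded mRNA libraries. The authors trimmed reads with FaQCs, pseudoaligned them to the JGI Glotr1_1 gene models with Kallisto (0.44.0, strand-specific) and normalized TPM with Sleuth (0.29.0). The deposited signal values are these normalized TPM, 1 column for each library and none pooled. They hold no read counts, so the depth behind a single value is unknown and precision was taken from the spread of 3 libraries. The study does report reads per library. A smaller share of them was pseudoaligned in each cellulose library than in each cedar or glucose library. Whether this bears on the values was not tested. Kallisto shares ambiguous reads between gene models by estimation.

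Tests used limma (3.58.1, R 4.3.3) on log2(TPM + 0.5), two-sided and with its mean-variance trend option, each pair of carbon sources in a fit of its own. A gene model entered a fit when 3 or more of the 6 libraries reached 0.1 TPM. All 4 members passed this filter in each comparison. P-values were adjusted by Benjamini-Hochberg over all gene models tested, and calls needed an adjusted p below 0.01 with mean TPM differing 2-fold or more. The design had been written for TPM of a fixed total, and the same test was kept for the rescaled values. Replicates are separate cultures. The fit was tested on simulated data. Sleuth's own test was not repeated.

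Tables and plots used Python (3.11.15), pandas (2.3.3), NumPy (2.4.6) and matplotlib (3.10.9). The members and lists were chosen with earlier results of these data known. Named genes were the members, the other AA1_1 genes, listed redox genes that are glycopeptides or reach a mean of 100 TPM in some group, and the 3 gene models most like each member, among those that reach 1 TPM in 3 or more libraries. Neighbours on the genome were added after seeing their values. Alternatives were added values of 0.1 and 1, no filter or one at 1 TPM, other scalings, no trend, 1 fit of all groups, a block by replicate number, the fitted fold change in place of the ratio, calls at 0.05 and each library left out in turn. The annotation matched 11422 gene models by locus tag. Protein and promoter sequences were not analysed here.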

Additional observations from a re-analysis of the deposited data

Results flagged for a closer look

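Of the 7 AA6 and AA1_1 genes, 3 laccases responded differently to cedar and cellulose by the direct limma test of cedar against cellulose. The log2 difference was 1.17 for Gtlcc1 (Glotr_43770), 1.24 for Gtlcc3 (Glotr_127593) and 1.23 for Gtlcc4 (Glotr_107459), each higher in 3 of 3 cedar libraries than in any cellulose library. Of all gene models tested, 10.7% were called in this direction, and 57.3% had cedar and cellulose libraries that did not overlap, in either direction. All 3 calls were lost under quantile normalization, without cedar replicate 1 and without cedar replicate 3.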

How the results depend on the processing

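The number of AA6 genes called lower on cedar than on glucose was 2, and 1 with the fold change from the fit or the same total TPM without the top 10 gene models (an alternative chosen after seeing the data), and 1 to 2 when a library was left out. On cellulose against glucose it was 1, but 2 with an added value of 1, a filter at 1 TPM, all 3 groups in 1 fit, an adjusted p under 0.05 or the total without the top 10, 3 under the same total TPM, 0 without a filter, and 0 to 2 when a library was left out. On cedar against cellulose, 2 AA6 genes became higher under the same total TPM and 1 without the top 10, against 0. Scaling was the choice that moved all gene models. The same total TPM shifted the median log2 difference by -0.16 for cedar over glucose, -1.01 for cellulose over glucose and 0.86 for cedar over cellulose, the total without the top 10 by 0.19, -0.35 and 0.55, and quantile normalization by 0.13 for cellulose over glucose. Relative to the median of all gene models, QRD1 on cellulose over glucose stayed at -1.93, -1.84 and -2.23 under these 3 scalings. Calls over all gene models were 353 higher and 5934 lower on cellulose than on glucose under the same total TPM and 715 and 2538 without the top 10, against 1093 and 1463. On cedar against cellulose they were 4897 higher and 141 lower under the same total, 3032 and 206 without the top 10, against 1124 and 625, with 710 higher under quantile normalization, 382 lower without a filter, and 287 to 1232 higher and 149 to 819 lower when a library was left out. On cedar against glucose, 60.6% of the calls were higher without the top 10, against 49.1%, and quantile normalization moved this share on cedar against cellulose to 53.0%, against 64.3%. The sign changed for Glotr_66940 on cellulose over glucose without cellulose replicate 2 or 3 (-0.41 to 0.083 when a library was left out), for Glotr_66940 (0.074) and the laccase Glotr_130426 (0.27) on cedar over cellulose under the same total TPM, and for Gtlcc3 on cellulose over glucose under quantile normalization (0.039). Deviations of same-numbered libraries correlated at -0.40 to 0.19, and in no comparison were all 3 pairs above 0.1. The numbers thus gave no sign of pairing, though 3 libraries a group are too few to exclude it. With the replicate block, 285 gene models were called higher and 127 lower on cedar than on cellulose, and the 3 laccase calls there missed the threshold (adjusted p = 0.0126 for Gtlcc1, 0.0297 for Gtlcc3 and 0.0145 for Gtlcc4), while the AA6 counts did not change. Causes were not tested. The values are limited by having 3 libraries a group and no read counts for single genes.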
